A study of Arabidopsis thaliana with 9 samples.

Results

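The cysteine-rich receptor-like kinases (CRKs) of Arabidopsis thaliana were followed in rosettes that lack normal activity of PDX3, the oxidase that makes the vitamin B6 cofactor pyridoxal 5'-phosphate. The 41 genes were taken by locus ID from the family as it is numbered in the reference annotation (CRK1 to CRK34 and CRK36 to CRK42), out of 33602 loci in the count tables, and all 41 were present. The loci were chosen by family membership with no threshold on expression, but the family was selected with the CPM values of these same libraries in view. The changes given here are therefore a description of the family and no independent evidence of its direction. mRNA was sequenced from 9 libraries of whole rosettes at 21 days, grown on soil under 16 hours of light and 8 hours of dark. They comprised 3 libraries of the wild type, ecotype Col-0, 3 of the insertion line pdx3-3 (SALK_054167C) and 3 of the insertion line pdx3-4 (GK-260E03), both in the same ecotype. Each allele was represented by a single insertion line, with no complemented line among the samples. The series' design text names 3 biological replicates of each genotype. The labels number the samples of a genotype 1 to 3 and do not say how the replicates were grown apart, nor how many rosettes went into each. The p-values measure the spread between these samples, and how much of it is technical is not known.

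CRKs are plasma membrane receptors whose outer part carries a cysteine-rich repeat domain, followed by a membrane-spanning segment and a cytosolic serine/threonine kinase. Many of the genes lie in tandem arrays. In leaves the family is known for roles in pathogen defence, in responses to reactive oxygen species made outside the cell, in cell death and in senescence, and many members are induced by salicylic acid and by pathogens.

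The targeted gene was reduced in every mutant library. PDX3 (AT5G49970) had 90.1, 88.9 and 78.7 CPM (the count divided by the library total, times 1000000) in the wild-type libraries. It had 9.24, 8.22 and 10.8 CPM in those of pdx3-3 (log2 −3.25, adjusted p = 9.54e-08) and 43.4, 51.5 and 42.7 CPM in those of pdx3-4 (log2 −0.96, adjusted p = 4.36e-05). Library totals ran from 15912737 to 21938941 counts. In pdx3-3 libraries 1 and 2, chloroplast transcripts took 0.536% and 0.174% of the counts, against 0.0162% to 0.0532% in the other 7. The same libraries had more ribosomal RNA (0.774% and 0.242%, against 0.0120% to 0.0608%) and mitochondrial transcripts (0.143% and 0.0524%, against 0.00478% to 0.0141%). Leaf mesophyll markers were abundant throughout, at a summed 68063 to 71178 CPM in wild type, 53420 to 58814 in pdx3-3 and 53796 to 57463 in pdx3-4. Of 7 root markers, EXPA7 and RHD6 had 0 counts in every library and only PYK10 passed the filter on low counts, at 19.6 to 61.1 CPM. The 7 floral organ markers summed to 1.35 to 6.39 CPM; of 5 tested, AG fell in both mutants, and SEP1 and SEP3 rose in pdx3-3. The 5 senescence markers summed to 34.0 to 67.3 CPM in wild type, 84.3 to 111.6 in pdx3-3 and 72.3 to 116.5 in pdx3-4, with SAG101 higher and ORE1 lower in both mutants and SAG12 at 0 counts in 8 of 9 libraries. The highest sums in wild type and pdx3-4 rested on SAG13 in replicate 1, with 28.0 CPM against 2.92 and 1.39 in wild type and 48.3 against 5.29 and 6.26 in pdx3-4. Without pdx3-4 replicate 1 the sums of that genotype were 72.3 and 74.2 CPM, and without wild type replicate 1 those of wild type were 44.4 and 34.0. Each of the 5 mesophyll markers fell in pdx3-3 and 4 of them in pdx3-4. The part that the mesophyll, floral and senescence differences play in the CRK values was not tested, and in whole rosettes fewer cells of a type cannot be told apart from less RNA per cell.

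The pool of CRK transcripts was larger in both mutants and had another leading member. The 41 genes together held 571 ± 88.5 CPM in wild type (SD, n = 3), which compares with 1516 ± 183 CPM in pdx3-3 and 1187 ± 19.0 CPM in pdx3-4. The wild-type libraries held 594.9, 644.8 and 472.8 CPM, those of pdx3-3 1310.5, 1575 and 1663, and those of pdx3-4 1199, 1196 and 1165, so the 3 genotypes did not overlap. In wild type, CRK21 supplied the largest share, 16.5% ± 0.33 of the pool (SD, n = 3), followed by CRK10 with 11.8% ± 1.78 and CRK40 with 10.96% ± 0.63. CRK10 took 22.5% ± 0.90 in pdx3-3 and 19.0% ± 2.00 in pdx3-4, while CRK21 took 4.93% ± 0.87 and 5.66% ± 0.28. CRK40 took 9.67% ± 0.52 and 11.2% ± 0.57. Per kilobase of annotated exon the order was similar. CRK21 stood at 39.7 CPM per kilobase in wild type and CRK10 at 26.3, and in the mutants CRK10 led with 134.5 in pdx3-3 and 88.8 in pdx3-4.

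**Figure D1:**
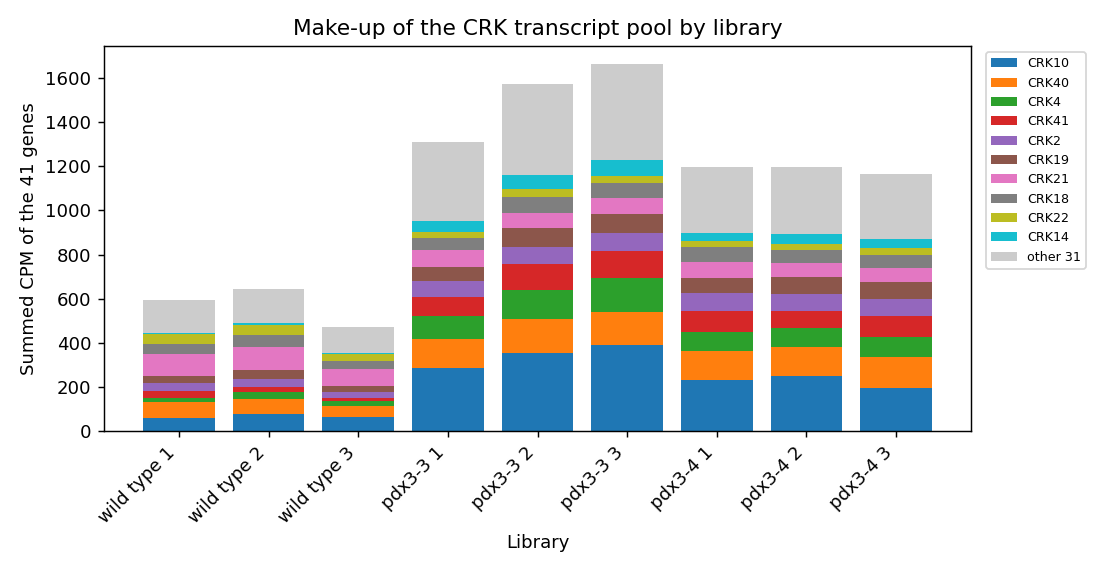
Stacked bars give the summed CPM (y axis) of the 41 CRK genes in each of the 9 libraries (x axis), with 10 genes in colour and the other 31 in grey. The wild-type bars end between 472.8 and 644.8 CPM and all mutant bars at 1165 CPM or more, with CRK10 as the largest block in each mutant library.

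Of the 41 genes, 34 passed the filter on low counts. Transcripts of 29 rose in pdx3-3, 2 fell and 3 were not called (adjusted p under 0.05 over all 18783 genes tested; median log2 fold change 1.68, against −0.026 over all genes tested). Among all tested genes 19.0% were called higher and 17.5% lower in pdx3-3, 36.4% in either direction. In pdx3-4, 26 of the 34 rose, 2 fell and 6 were not called (median log2 1.32, against −0.015), with 20.9% of all tested genes called higher and 18.4% lower, 39.2% in either direction. All 3 mutant libraries lay above all 3 of wild type for 30 of the 34 genes in pdx3-3 (27.8% of all tested genes) and for 30 in pdx3-4 (29.5%), and below for 1 (19.2%) and 2 (19.6%). Both comparisons use the same wild-type libraries. Without pdx3-3 replicates 1 and 2, the libraries with more chloroplast, mitochondrial and ribosomal RNA, a single pdx3-3 library was left. Its CRKs summed to 1663 CPM, against 472.8 to 644.8 CPM in the wild-type libraries. In the fit without those replicates, CRK21 and CRK22 stood at log2 −0.42 and −0.55 against wild type. That fit assumed that the library left varied like the other groups. The rise was over 2-fold for 23 of the genes in pdx3-3 and 20 in pdx3-4, while 8.76% and 8.05% of all tested genes were called with a rise over 2-fold. The counts describe the 34 genes only: CRK8, CRK31, CRK37, CRK38 and CRK39 lay under the filter's floor of 0.482 CPM in at least 1 wild-type library and passed through their mutant values. Calls for 25 genes were higher in both alleles, and CRK21 and CRK22 were lower in both. The share of all tested genes called alike in both alleles is not given here, so these counts have no baseline. CRK9, CRK17, CRK18 and CRK28 were called higher in pdx3-3 and not called in pdx3-4. CRK42 was called higher in pdx3-4 and not called in pdx3-3, and CRK29 and CRK30 were called in neither.

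**Figure D2:**
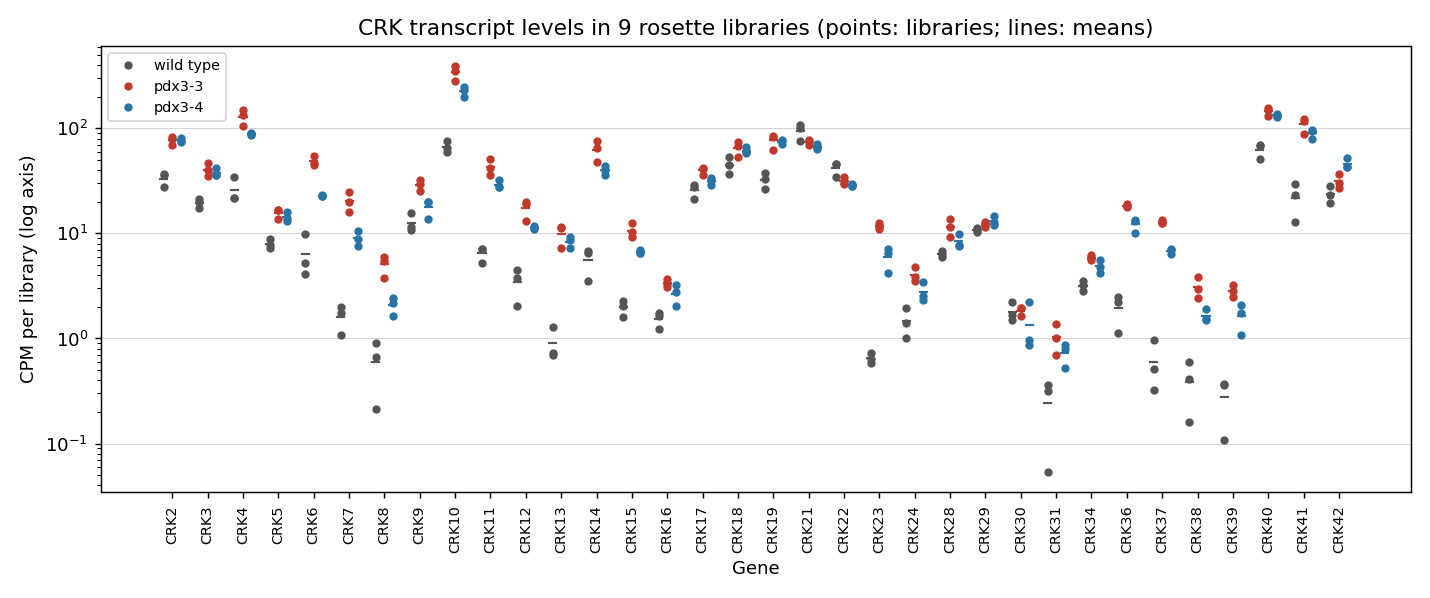
Points are the CPM of each library on a log axis (y) for the 34 tested CRK genes (x), in grey for wild type, red for pdx3-3 and blue for pdx3-4, and short lines are the means of 3 libraries. Red and blue points lie above the grey for most genes, below them for CRK22, and CRK30 overlaps between all genotypes.

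Members with a described part in immunity or oxidative signalling were among those that rose. CRK2 (AT1G70520), which phosphorylates the NADPH oxidase RBOHD and promotes callose deposition and salt tolerance, had 35.9, 36.4 and 27.4 CPM in wild type, against 69.8, 79.3 and 83.1 in pdx3-3 and 80.4, 74.5 and 76.4 in pdx3-4. Every mutant library lay above every wild-type library, and the mutant libraries overlapped each other (pdx3-3 log2 1.16, SE 0.12, adjusted p = 2.52e-05; pdx3-4 log2 1.16, SE 0.12, adjusted p = 2.56e-05). CRK36 (AT4G04490), which acts with the cytosolic kinase BIK1 in immune signalling, had 2.21, 2.51 and 1.12 CPM in wild type, against 18.3, 17.8 and 19.2 in pdx3-3 and 13.1, 10.1 and 13.5 in pdx3-4. It rose 8.94-fold in pdx3-3 (log2 3.16, SE 0.22, adjusted p = 1.6e-06) and 5.96-fold in pdx3-4 (log2 2.58, SE 0.22, adjusted p = 8.8e-06). CRK13 (AT4G23210), whose overexpression causes cell death and salicylic acid accumulation, was barely present in wild type: its values were 0.721, 1.28 and 0.696 CPM in wild type, against 11.2, 7.23 and 11.4 in pdx3-3 and 8.59, 7.26 and 9.15 in pdx3-4. It rose in pdx3-3 (log2 3.38, SE 0.27, adjusted p = 4.22e-06) and in pdx3-4 (log2 3.13, SE 0.27, adjusted p = 8.81e-06), and the mutant libraries overlapped each other.

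CRK6 and CRK7 are neighbours that protect against damage from extracellular reactive oxygen. CRK6 (AT4G23140) stood at 5.20, 9.85 and 4.07 CPM in wild type, against 44.99, 46.3 and 54.4 in pdx3-3 and 22.9, 22.5 and 23.3 in pdx3-4. CRK7 (AT4G23150) stood at 1.75, 2.01 and 1.07 CPM in wild type, against 15.96, 24.8 and 19.8 in pdx3-3 and 10.5, 7.55 and 8.91 in pdx3-4. For both genes the 3 genotypes formed separate ranges, wild type lowest and pdx3-3 highest. CRK6 rose in pdx3-3 (log2 2.85, SE 0.24, adjusted p = 7.21e-06) and in pdx3-4 (log2 1.77, SE 0.24, adjusted p = 0.000228), as did CRK7 (log2 3.57, SE 0.24, adjusted p = 1.29e-06; log2 2.41, SE 0.25, adjusted p = 2.69e-05). CRK5 (AT4G23130), which restrains senescence and cell death, changed less: 7.77, 8.80 and 7.22 CPM in wild type, against 13.7, 16.8 and 16.6 in pdx3-3 and 13.1, 16.01 and 13.9 in pdx3-4 (log2 0.93, SE 0.12, adjusted p = 0.000145; log2 0.80, SE 0.12, adjusted p = 0.000402). CRK28 (AT4G21400), which associates with the co-receptor BAK1 and triggers cell death when overexpressed, had 6.43, 6.02 and 6.85 CPM in wild type, against 9.24, 13.7 and 11.4 in pdx3-3 and 7.84, 9.90 and 7.56 in pdx3-4. It passed the test in pdx3-3 (log2 0.78, SE 0.15, adjusted p = 0.00181), whereas the pdx3-4 change did not pass (log2 0.34, SE 0.15, adjusted p = 0.0973); the difference between the alleles was log2 0.45 (SE 0.14, adjusted p = 0.101), or adjusted p = 0.0400 without pdx3-3 replicate 1. CRK20 (AT4G23280), whose loss lowers growth of a bacterial pathogen in leaves, was too low to be tested, with 2, 7 and 0 counts in wild type, 13, 15 and 9 in pdx3-3 and 4, 4 and 3 in pdx3-4.

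CRK5 to CRK24 form 1 array of 20 genes on chromosome 4 (12117491 to 12191704 in TAIR10.1). In pdx3-3, 17 of its 19 tested genes rose and 2 fell, where 19.0% of all tested genes were called higher and 17.5% lower. In pdx3-4, 14 rose, 2 fell and 3 were not called, where 20.9% of all tested genes were called higher and 18.4% lower. CRK8 reached the filter's floor in only 2 wild-type libraries and was tested because of its mutant values, so for it a rise was built into being tested. CRK23 (AT4G23310), near the far end, showed the largest change of the array in pdx3-3, and in pdx3-4 was close behind CRK13: 0.721, 0.638 and 0.589 CPM in wild type, against 11.6, 11.05 and 12.5 in pdx3-3 and 4.22, 7.07 and 6.46 in pdx3-4. It was 17.2-fold higher in pdx3-3 (log2 4.10, SE 0.23, adjusted p = 5.55e-07) and 8.70-fold higher in pdx3-4 (log2 3.12, SE 0.24, adjusted p = 4.5e-06). CRK14 (AT4G23220), in the middle of the array, had 6.49, 6.84 and 3.53 CPM in wild type, against 47.7, 64.6 and 75.8 in pdx3-3 and 35.99, 43.9 and 40.3 in pdx3-4 (pdx3-3 log2 3.41, SE 0.23, adjusted p = 1.54e-06; pdx3-4 log2 2.77, SE 0.23, adjusted p = 7.55e-06). The mutant libraries of CRK14 lay at 36.0 CPM or more and its wild-type libraries at 6.84 or less.

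CRK10 (AT4G23180), the most abundant member in the mutants, in which a gain-of-function allele is known to disturb xylem vessels, had 59.97, 76.1 and 64.5 CPM in wild type, against 284, 352 and 391 in pdx3-3 and 230.1, 250.3 and 197 in pdx3-4. Its level rose 4.91-fold in pdx3-3 (log2 2.30, SE 0.14, adjusted p = 7.21e-07) and 3.25-fold in pdx3-4 (log2 1.70, SE 0.13, adjusted p = 5.71e-06). Its neighbour CRK11 (AT4G23190), an early-described pathogen- and oxidant-inducible receptor kinase, had 7.05, 7.16 and 5.19 CPM in wild type, against 36.1, 41.8 and 51.6 in pdx3-3 and 27.6, 32.2 and 27.6 in pdx3-4 (log2 2.68, SE 0.16, adjusted p = 6.99e-07; log2 2.11, SE 0.16, adjusted p = 4.13e-06). The 3′ ends of CRK10 and CRK11 overlap by 32 bases on opposite strands, and whether counting used strand is not given in the sources used here. CRK15 (AT4G23230) had 2.06, 2.28 and 1.61 CPM in wild type, against 9.18, 10.3 and 12.4 in pdx3-3 and 6.52, 6.97 and 6.46 in pdx3-4 (log2 2.36, SE 0.16, adjusted p = 1.52e-06; log2 1.68, SE 0.16, adjusted p = 1.98e-05). CRK8 (AT4G23160), next to CRK7, was low throughout: 0.669, 0.912 and 0.214 CPM in wild type, against 3.77, 5.99 and 5.48 in pdx3-3 and 2.16, 1.63 and 2.41 in pdx3-4 (log2 2.99, SE 0.36, adjusted p = 8.43e-05; log2 1.69, SE 0.38, adjusted p = 0.00524).

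CRK21 and CRK22 were the only tested CRKs called lower, and they lie side by side in the array between CRK20 and CRK23. CRK21 (AT4G23290) had 100.01, 107 and 76.4 CPM in wild type, against 77.8, 69.9 and 73.5 in pdx3-3 and 71.1, 64.3 and 65.96 in pdx3-4, so that 1 wild-type library fell within the pdx3-3 range. CRK22 (AT4G23300) had 45.7, 45.8 and 34.6 CPM in wild type, against 30.1, 34.4 and 29.8 in pdx3-3 and 29.5, 28.1 and 28.5 in pdx3-4, with every mutant library below every wild-type library. The falls were small: CRK21 fell by 0.42 on the log2 scale in pdx3-3 (SE 0.12, adjusted p = 0.0219) and by 0.55 in pdx3-4 (SE 0.12, adjusted p = 0.00489), CRK22 by 0.48 (SE 0.12, adjusted p = 0.00893) and by 0.61 (SE 0.12, adjusted p = 0.00210). CRK21 lost its pdx3-3 call on leaving out wild type replicate 1 or 2 or pdx3-3 replicate 2 or 3 (adjusted p = 0.0679, 0.0840, 0.0817 and 0.0626). Without pdx3-3 replicates 1 and 2 together neither gene was called in pdx3-3 (adjusted p = 0.164 for CRK21 and 0.0594 for CRK22).

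The array also held members that changed less. CRK9 (AT4G23170), listed under the symbol EP1 in the reference and with the shortest coding sequence of the family (798 bases), had 11.5, 15.8 and 10.7 CPM in wild type, against 25.4, 32.4 and 29.3 in pdx3-3 and 19.7, 19.997 and 13.7 in pdx3-4. It rose in pdx3-3 (log2 1.13, SE 0.17, adjusted p = 0.000476). No call was made for pdx3-4 (log2 0.43, SE 0.18, adjusted p = 0.0782), where it passed without wild type replicate 2 (adjusted p = 0.0124) or pdx3-4 replicate 3 (0.0323). CRK17 and CRK18 also passed in pdx3-3 and not in pdx3-4, at log2 0.56 (adjusted p = 0.00407) and 0.49 (adjusted p = 0.0275), against 0.23 (adjusted p = 0.168) and 0.39 (adjusted p = 0.0619) in pdx3-4. The difference between the alleles did not pass for either gene (CRK17 log2 0.34, SE 0.12, adjusted p = 0.136; CRK18 log2 0.10, SE 0.15, adjusted p = 0.799). CRK18 lost its pdx3-3 call on leaving out wild type replicate 1 or 3 or pdx3-3 replicate 2 or 3 (adjusted p = 0.0674, 0.0672, 0.110 and 0.0765), and in pdx3-4 the gene passed without wild type replicate 2 (0.0123) or pdx3-3 replicate 1 (0.0408), with library size alone (0.0309) and with DESeq2 (0.0485). The remaining tested genes, CRK12, CRK16, CRK19 and CRK24, rose in both alleles by log2 1.05 to 2.27 in pdx3-3 and 0.73 to 1.65 in pdx3-4. In pdx3-4, CRK16 was not called without wild type replicate 1 (adjusted p = 0.0753) or pdx3-4 replicate 2 (0.0860) or 3 (0.0674), and CRK24 not without wild type replicate 1 (0.0619) or 3 (0.0601) or pdx3-4 replicate 2 (0.0879).

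**Figure D3:**
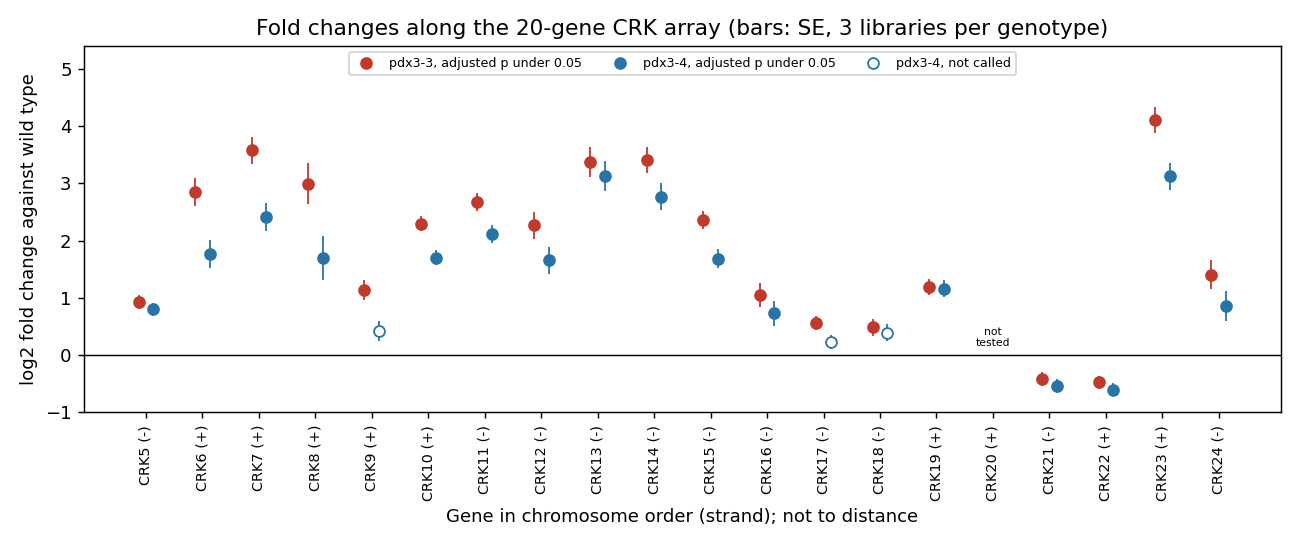
Log2 fold change against wild type (y axis, bars are SE, 3 libraries per genotype) is plotted for the 20 genes of the CRK5 to CRK24 array in chromosome order (x axis, strand in brackets), red for pdx3-3 and blue for pdx3-4, open where not called. CRK6 to CRK8, CRK13, CRK14 and CRK23 stand highest in pdx3-3, and CRK21 and CRK22 lie below 0 for both alleles.

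Near-identical stretches limit how well some array members can be told apart. Words of 50 bases from the annotated exons were searched in the whole genome on both strands: 15 of the 41 genes shared none with another place, 22 shared under 10% and 4 shared more. CRK6 and CRK8 shared 22.0% and 16.5% of their words, mainly with each other, and CRK13 and CRK22 shared 15.4% and 16.2%, mainly with each other. CRK13 rose while CRK22 fell, so their counts moved apart in spite of the shared stretch. CRK6 and CRK8 moved together, at means of 6.37, 48.6 and 22.9 CPM in wild type, pdx3-3 and pdx3-4 for CRK6 and 0.598, 5.08 and 2.07 for CRK8. Whether CRK6 reads were counted for CRK8 was not tested. CRK16 and CRK17 overlap by 1190 bases on 1 strand, and CRK28 and CRK29 by 470. How multiply mapped reads were counted is not stated in the labels.

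In a second cluster on chromosome 4, CRK36 to CRK40, each of the 5 genes was called higher in both alleles (19.0% and 20.9% of all tested genes were). CRK37, CRK38 and CRK39 reached the filter's floor in only 2, 1 and 0 wild-type libraries and were tested because of their mutant values, so for them a rise was built into being tested and the count is not a result about the cluster. CRK37 (AT4G04500) had the largest fold change of the tested family: 0.515, 0.957 and 0.321 CPM in wild type, against 12.7, 12.6 and 13.4 in pdx3-3 and 7.18, 6.35 and 6.89 in pdx3-4. It was called in pdx3-3 (log2 4.32, SE 0.23, adjusted p = 4.7e-07) and in pdx3-4 (log2 3.40, SE 0.24, adjusted p = 2.9e-06), and the 3 genotypes did not overlap. CRK39 (AT4G04540) had 0.360, 0.365 and 0.107 CPM in wild type, against 3.21, 2.82 and 2.48 in pdx3-3 and 1.08, 2.07 and 1.73 in pdx3-4 (log2 3.24, SE 0.38, adjusted p = 7.21e-05; log2 2.45, SE 0.40, adjusted p = 0.000659). CRK38 rose in pdx3-3 (log2 2.86, SE 0.35, adjusted p = 9.94e-05) and in pdx3-4 (log2 1.98, SE 0.37, adjusted p = 0.00158). CRK40, far more abundant than its neighbours with 62.6 ± 10.1 CPM in wild type (SD, n = 3), rose by log2 1.16 (adjusted p = 3.42e-05) and 1.03 (adjusted p = 7.90e-05).

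Genes outside these 2 clusters held both called and uncalled members. CRK4 on chromosome 3, which is known to associate with the flagellin receptor FLS2, and CRK41 at the start of chromosome 4 were higher in both mutants: CRK4 by log2 2.24, SE 0.19, adjusted p = 6.26e-06 and log2 1.70, SE 0.19, adjusted p = 4.21e-05, and CRK41 by log2 2.25, SE 0.25, adjusted p = 4.87e-05 and log2 1.98, SE 0.25, adjusted p = 0.000113. CRK3, next to CRK2 on chromosome 1, rose in pdx3-3 (log2 1.00, SE 0.12, adjusted p = 7.62e-05) and in pdx3-4 (log2 0.90, SE 0.12, adjusted p = 0.000149). In the CRK30 to CRK34 cluster, CRK31 and CRK34 rose in pdx3-3 by log2 1.96 (adjusted p = 0.00997) and 0.82 (adjusted p = 0.000931) and in pdx3-4 by log2 1.48 (adjusted p = 0.0412) and 0.55 (adjusted p = 0.0101). In wild type CRK31 had only 0.0535 to 0.360 CPM, and its pdx3-4 call did not hold on leaving out wild type replicate 2 (adjusted p = 0.0593) or 3 (0.0918), pdx3-3 replicate 1 (0.0546) or pdx3-4 replicate 1 (0.0990) or 3 (0.126). CRK30 had log2 −0.034 (adjusted p = 0.947) and −0.47 (adjusted p = 0.292), the latter passing without pdx3-4 replicate 1 (log2 −1.02, adjusted p = 0.0165). CRK29 had log2 0.11 (adjusted p = 0.405) and 0.23 (adjusted p = 0.0823), and passed in pdx3-4 without pdx3-4 replicate 1 (0.0494) or with library size alone (log2 0.28, adjusted p = 0.0378).

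CRK42 (AT5G40380) on chromosome 5, singled out after its values were seen, had its larger fold change in pdx3-4. It had 28.3, 23.3 and 19.4 CPM in wild type, against 26.9, 36.9 and 30.4 in pdx3-3 and 43.3, 42.7 and 52.2 in pdx3-4. The pdx3-4 change was called (log2 0.91, SE 0.16, adjusted p = 0.00103). That of pdx3-3 was not (log2 0.35, SE 0.16, adjusted p = 0.110) but passed without wild type replicate 1 (adjusted p = 0.0408). The difference between the alleles was log2 −0.56 (SE 0.16, adjusted p = 0.0633), and it passed without wild type replicate 1 (0.0490) or 3 (0.0253), with upper-quartile factors (0.0408), with no filter (0.0466), with only the 2 mutants fitted (0.0335) and with DESeq2 (0.0236).

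Compared directly, pdx3-3 had higher levels than pdx3-4 for part of the family. With edgeR, 9 of the 34 tested genes were called higher in pdx3-3, 0 lower and 25 not called (median log2 0.47, against −0.007 over all genes tested), where 3.32% of all tested genes were called higher and 2.84% lower, 6.16% in either direction. DESeq2 called 12 higher and 1 lower, and over all genes it called 1411 in either direction, against 1157 with edgeR. DESeq2 was run without the filter on low counts, so these totals are not out of the same set of genes. Its shares of all genes called higher and lower are not given here. At an unadjusted p under 0.05 in edgeR, 18 were higher and 1 lower. The share of all genes at that unadjusted threshold is not given here, and the 3.32% and 2.84% do not apply to it. The 9 were CRK8, CRK7, CRK6, CRK23, CRK37, CRK9, CRK15, CRK10 and CRK11, of which 8 lie in the array. CRK8 differed most (log2 1.297, SE 0.30, adjusted p = 0.0299), followed by CRK7 (log2 1.17, SE 0.19, adjusted p = 0.00613), CRK6 (log2 1.08, SE 0.22, adjusted p = 0.0160) and CRK23 (log2 0.98, SE 0.17, adjusted p = 0.00770). CRK8 was low and shares exonic stretches with CRK6, so its value may not be separate from that of CRK6. CRK37 differed by log2 0.92, SE 0.16, adjusted p = 0.00973, CRK9 by log2 0.70, SE 0.17, adjusted p = 0.0338, CRK15 by log2 0.68, SE 0.14, adjusted p = 0.0182, CRK10 by log2 0.60, SE 0.13, adjusted p = 0.0233 and CRK11 by log2 0.57, SE 0.14, adjusted p = 0.0362. For each of these 9 genes, all 3 pdx3-3 libraries lay above all 3 pdx3-4 libraries. That held for 19 of the 34 tested genes, against 13.3% of all genes tested.

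The number of genes called between the alleles rested on single libraries. It was 4 without pdx3-3 replicate 2 and 4 without pdx3-3 replicate 3. Without pdx3-4 replicate 1, 2 or 3 it was 3, 3 and 2, and without wild type replicate 3 it was 15. Each of these fits applied the filter on low counts anew, so the number can take in members outside the 34 tested genes. Calls over all genes went from 1157 to between 391 and 1816. Each of the 9 was lost in at least 1 of 17 settings, 7 of them on leaving out a single library and CRK7 and CRK23 only on leaving out pdx3-3 replicates 1 and 2 together (adjusted p = 0.0515 and 0.0815). Without pdx3-4 replicate 3 the adjusted p was 0.0747 for CRK6, 0.0898 for CRK8, 0.144 for CRK9, 0.121 for CRK10, 0.151 for CRK11, 0.0870 for CRK15 and 0.0511 for CRK37. Among the members not called, CRK2 differed by log2 0.003 (SE 0.11, adjusted p = 0.995) and CRK19 by 0.031 (SE 0.14, adjusted p = 0.942).

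**Figure D4:**
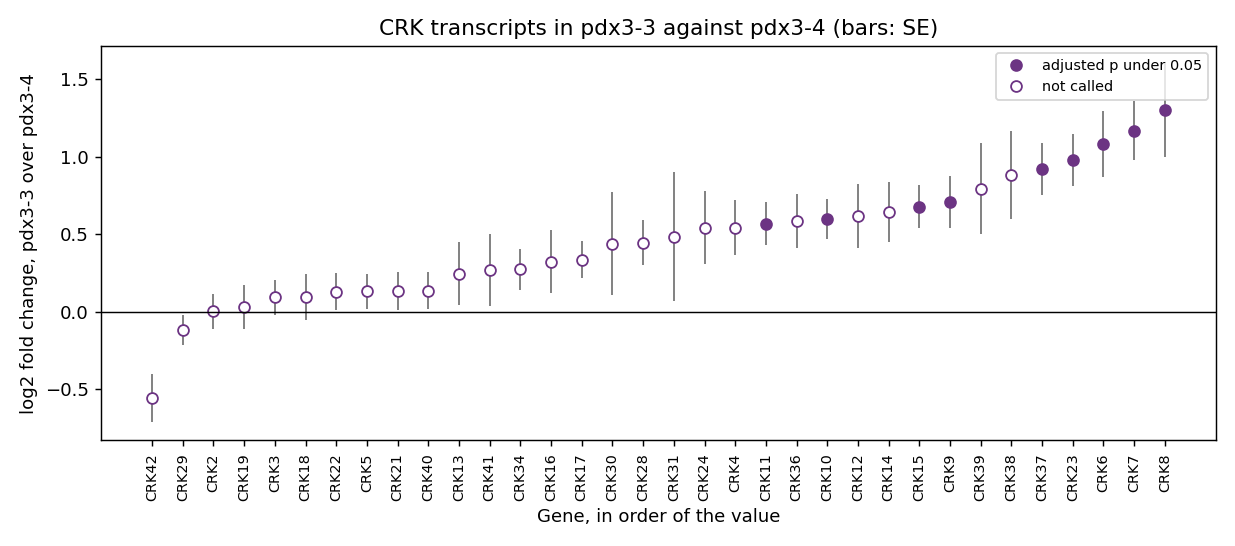
Log2 fold change of pdx3-3 over pdx3-4 (y axis, bars are SE) is shown for the 34 tested CRK genes in order of the value (x axis), filled where the adjusted p was under 0.05. The 9 filled points lie between 0.57 and 1.297, and CRK42 is lowest at −0.56.

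The stretch before the gene start held W boxes more often in the family than across the genome. A W box is the DNA element that WRKY transcription factors bind, and its core TTGAC was searched on both strands in the 250 bases before the annotated start of each gene. The core occurred before 30 of the 41 CRKs (73.2%) and before 44.9% of 27443 protein-coding genes, and 2 or more cores before 17 CRKs (41.5%) and 14.1% of all. The longer forms, which contain the core, were also more frequent: TTGACT before 46.3% of the CRKs and 19.1% of all, and TTGACC before 22.0% and 12.2%. CRKs of 1 array descend from shared ancestors and are not independent, so no test was made. Of the 29 CRKs called higher in pdx3-3, 22 had a core and 7 had none (CRK2, CRK3, CRK12, CRK13, CRK19, CRK28 and CRK40), and the 2 called lower had none. A core also stood before 2 of the 3 CRKs not called in pdx3-3 and before 6 of the 7 too low to be tested. Having a core therefore did not separate the CRKs that rose from those barely present. All 9 genes that were higher in pdx3-3 than in pdx3-4 had at least 1, as did 15 of the 25 not called between the alleles. In 9 genes the window ran into another annotated gene, and in 3 (CRK14, CRK15 and CRK33) the annotation starts at the coding sequence.

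**Figure D5:**
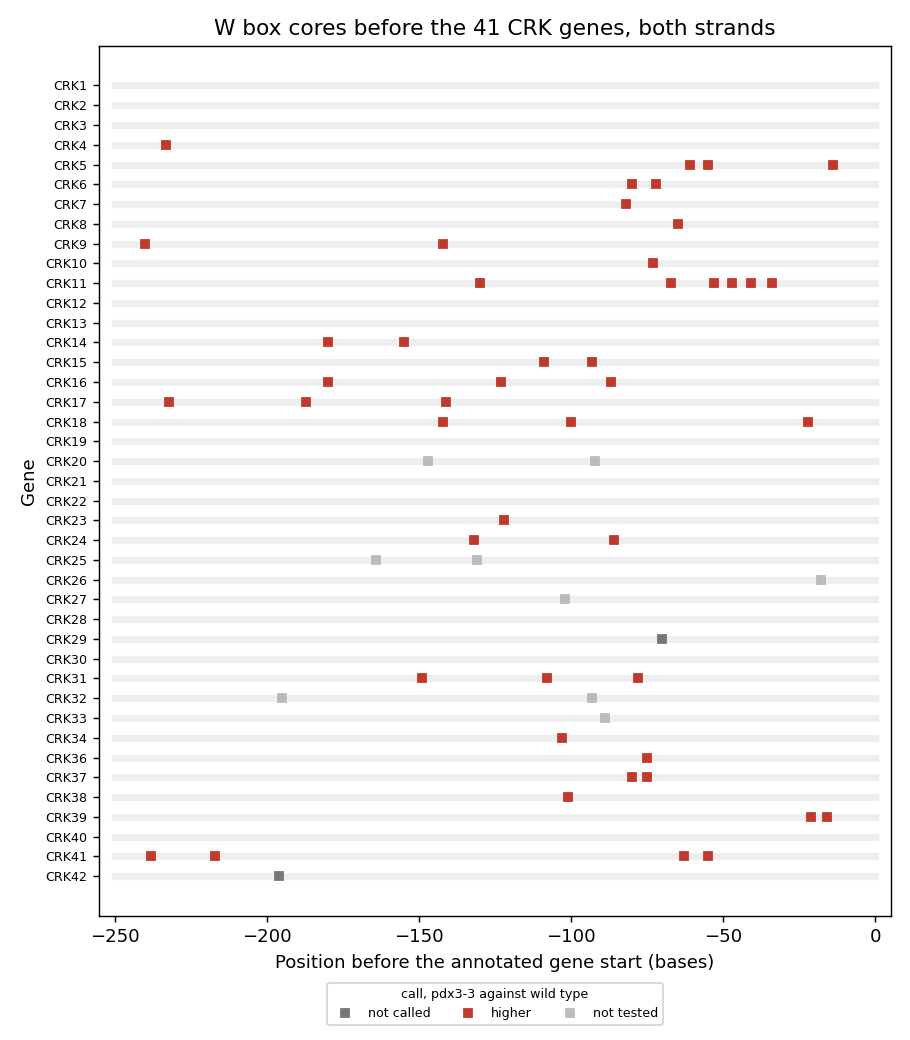
Squares mark W box cores on either strand (x axis, bases before the annotated gene start) for each of the 41 CRK genes (y axis), red where the gene was called higher in pdx3-3 against wild type, dark grey where not called and light grey where not tested. CRK11 carries 6 cores, and CRK21 and CRK22, the genes called lower, carry none. Of the 7 genes not tested, 6 carry at least 1.

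Promoter sequences of 4 genes show the range. They are the 250 bases before the annotated start, written 5′ to 3′ on the gene's strand from the RefSeq TAIR10.1 genome, with TTGAC or its reverse complement in capitals. CRK11 (chr4:12143859-12144108, minus strand) has the most cores of the family, most of them close together near the start. CRK37 (chr4:2238120-2238369, plus strand), the gene with the largest fold change in both alleles, has 2 cores side by side. CRK23 (chr4:12185119-12185368, plus strand), with the next largest fold change in pdx3-3, has 1. CRK13, which holds that place in pdx3-4, has none. CRK21 (chr4:12180937-12181186, minus strand), which fell, has none.
CRK11: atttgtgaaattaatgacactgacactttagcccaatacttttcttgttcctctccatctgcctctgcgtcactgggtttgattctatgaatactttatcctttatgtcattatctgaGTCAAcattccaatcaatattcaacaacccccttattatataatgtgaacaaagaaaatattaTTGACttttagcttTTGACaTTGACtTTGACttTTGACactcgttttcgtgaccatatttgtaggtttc
CRK37: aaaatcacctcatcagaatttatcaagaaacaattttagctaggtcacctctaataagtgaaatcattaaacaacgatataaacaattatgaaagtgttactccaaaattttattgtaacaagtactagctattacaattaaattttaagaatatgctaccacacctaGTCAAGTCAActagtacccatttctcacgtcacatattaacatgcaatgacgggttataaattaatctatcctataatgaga
CRK23: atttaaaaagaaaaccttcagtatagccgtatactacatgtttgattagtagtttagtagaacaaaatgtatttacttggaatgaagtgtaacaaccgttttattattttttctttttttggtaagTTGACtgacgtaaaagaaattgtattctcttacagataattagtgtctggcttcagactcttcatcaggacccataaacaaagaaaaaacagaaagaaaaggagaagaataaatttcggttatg
CRK21: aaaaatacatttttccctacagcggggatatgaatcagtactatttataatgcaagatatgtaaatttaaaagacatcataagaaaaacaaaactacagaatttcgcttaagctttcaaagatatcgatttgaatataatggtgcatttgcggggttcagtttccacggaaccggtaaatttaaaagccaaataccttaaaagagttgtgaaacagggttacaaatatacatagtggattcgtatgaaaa

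The WRKY factors taken as binders of this element rose as well. Of 7 listed, 7 rose in pdx3-3 (median log2 3.42), 6 in pdx3-4 (median log2 1.79), and 5 were higher in pdx3-3 than in pdx3-4, where 19.0%, 20.9% and 3.32% of all tested genes were called higher. The list was drawn up with earlier results of these data known and is no independent evidence of its direction. WRKY53 had 7.81 CPM in wild type, 106.9 CPM in pdx3-3 against 29.2 in pdx3-4 (means of 3 libraries; log2 3.71, SE 0.16, adjusted p = 1.83e-07; log2 1.84, SE 0.15, adjusted p = 7.94e-06; between the alleles log2 1.87, SE 0.14, adjusted p = 0.000128). WRKY18 reached 109.5 and 130.4 CPM from 5.62, with log2 4.24 (adjusted p = 5.61e-07) and 4.49 (adjusted p = 6.87e-07). WRKY33 rose in pdx3-3 (log2 3.42, SE 0.23, adjusted p = 1.3e-06) and in pdx3-4 (log2 1.79, SE 0.21, adjusted p = 7.91e-05), and WRKY6 likewise (log2 2.17, SE 0.17, adjusted p = 3.31e-06; log2 1.43, SE 0.17, adjusted p = 6.83e-05). Binding of these factors to DNA was not measured.

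Partners through which CRKs are known to act rose with them. Of 8 listed genes, 7 rose and 0 fell in each allele (median log2 0.89 in pdx3-3 and 0.73 in pdx3-4), with 19.0% and 20.9% of all tested genes called higher. This list, too, was drawn up with earlier results known. RBOHD, the oxidase that makes extracellular superoxide, went from 48.5 CPM in wild type to 189.5 in pdx3-3 and 119.0 in pdx3-4 (log2 1.91, SE 0.15, adjusted p = 3.42e-06; log2 1.24, SE 0.14, adjusted p = 6.58e-05) and differed between the alleles (log2 0.67, SE 0.14, adjusted p = 0.0203). CALS1, a callose synthase, rose by log2 1.15 (adjusted p = 4.72e-06) and 0.78 (adjusted p = 7.24e-05), BIK1 by 1.21 (adjusted p = 2.00e-05) and 0.67 (adjusted p = 0.00125), and BAK1 by 0.81 (adjusted p = 2.36e-05) and 0.88 (adjusted p = 1.35e-05). AT5G49760, a leucine-rich repeat kinase, was the 1 not called (adjusted p = 0.180 and 0.538).

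Plasmodesmata-located proteins carry the same outer domain without a kinase. Of 7 tested genes for them, 1 rose and 2 fell in pdx3-3 (median log2 −0.47), where 36.4% of all tested genes were called in either direction. In pdx3-4, 1 rose and 1 fell (median log2 −0.28), beside 39.2% of all tested genes. The gene that rose was PDLP5, named HWI1 in the reference, which limits traffic through plasmodesmata, from 1.73 CPM in wild type to 3.89 in pdx3-3 and 3.07 in pdx3-4 (log2 1.11, SE 0.16, adjusted p = 0.000301; log2 0.77, SE 0.16, adjusted p = 0.00322). PDLP2 fell in both (log2 −0.47, SE 0.099, adjusted p = 0.00370; log2 −0.54, SE 0.099, adjusted p = 0.00146), and PDLP7 in pdx3-3 (log2 −0.67, SE 0.18, adjusted p = 0.0145). Among 3 tested loci that belong to or resemble the family but carry other names, ARCK1 (also CRK45), a cytosolic kinase of abscisic acid responses, rose from 4.73 CPM to 31.5 and 31.8 (log2 2.67, SE 0.14, adjusted p = 4.92e-07; log2 2.68, SE 0.14, adjusted p = 7.38e-07) and AT1G70740 from 11.6 to 41.2 and 40.2 (log2 1.78, SE 0.18, adjusted p = 2.96e-05; log2 1.74, SE 0.18, adjusted p = 3.37e-05), while AT4G00960 was not called (adjusted p = 0.775 and 0.620).

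The 7 CRKs left untested had very few counts in these rosettes. CRK1 and CRK33 had 0 counts in all 9 libraries, which allows up to 3 counts or 0.137 to 0.189 CPM in a library. CRK32 had 0 or 1 count per library, CRK25 0 to 5, CRK26 1 to 5 and CRK27 1 to 7. With no filter, CRK20 was the one of them that passed, in pdx3-3 (log2 2.04, adjusted p = 0.0331) and not in pdx3-4 (log2 0.17, adjusted p = 0.917).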

How the data were processed

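Per the labels' protocols, RNA of whole rosettes was polyA-selected with an Illumina TruSeq stranded kit and the 9 libraries were pooled for sequencing. Per the submitters' processing notes, the tools were FastQC and TopHat2 (version 2) with TAIR10 as build. The values the authors deposited are whole-number counts per locus, 1 file per library, not normalized; the counting tool and its strand setting are not given in the sources used here. The protein sequences of the family were not used here.

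Counts were filtered with filterByExpr (18783 genes left), normalised with TMM (factors 0.949 to 1.03) and analysed in R 4.3.3 by the edgeR 4.0.16 quasi-likelihood test, with genotype as the only term over all 9 libraries. This leaves 6 residual degrees of freedom. Adjusted p-values are Benjamini-Hochberg values over all genes tested, called under 0.05. The SE is the log2 fold change over the square root of F. A permutation test of 3 against 3 libraries cannot go below 0.10. CPM printed are counts over library totals. Libraries of 1 genotype differed beyond counting noise (chi-square per degree of freedom 5.34 to 25.5). The pipeline was tested on simulated data.

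Positions, names and sequences are RefSeq TAIR10.1, matched by locus ID (32835 of 33602 loci, and all 41 CRKs). The files carry no coordinates. The CRK members and the other lists were chosen with earlier results of these data known. Values in every library are given for the 8 CRKs with the largest change among those called in each comparison, those called lower, and 8 with a described role. Genes of other lists were named by the smallest adjusted p, up to 4 each. CRK42 and other members named outside this rule were chosen after their values were seen. Alternatives were other size factors, no filter, DESeq2 1.42.0, 2 groups only, a replicate block, and leaving out libraries.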

Additional observations from a re-analysis of the deposited data

How the results depend on the processing

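The alternatives were 9 fits that leave out 1 library each and 8 others. Of 31 CRKs called in pdx3-3, 28 kept their call in all 17, as did 25 of 28 in pdx3-4 and 0 of 9 between the alleles. Over all tested CRKs and comparisons, 1623 values kept direction and call, 63 lost a call, 34 gained one and 14 changed sign, none of the last called. The number called lower in pdx3-3, 2, was 1 with only the 2 groups fitted, 1 to 2 on leaving out a library and 0 without pdx3-3 replicates 1 and 2 together. The number higher in pdx3-3 than in pdx3-4, 9, was 15 with only the 2 groups fitted, 2 to 15 on leaving out a library and 3 without pdx3-3 replicates 1 and 2 together; the number lower, 0, was 1 with upper-quartile factors, no filter, only the 2 groups or DESeq2, and 0 to 1 on leaving out a library. Fits with fewer libraries applied the filter on low counts anew, so their counts can take in members outside the 34 tested genes. Fewer libraries leave fewer degrees of freedom, and the cause was otherwise not tested.

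Upper-quartile factors moved the median of all genes to −0.15 in pdx3-3 and −0.13 in pdx3-4. Signs changed for CRK30 in pdx3-3 with library size alone (log2 0.024) and on leaving out a library (−0.16 to 0.14), for CRK29 in pdx3-3 with upper-quartile factors (−0.010), and between the alleles for CRK2 with upper-quartile factors (−0.0033) or no filter (−0.00039). On leaving out a library the allele difference ran from −0.0447 to 0.0699 for CRK2, −0.00947 to 0.19 for CRK3, −0.00166 to 0.22 for CRK18 and −0.0361 to 0.15 for CRK19. Deviations of same-numbered libraries from their genotype means correlated at −0.150 to 0.343, the highest being wild type 1 with pdx3-4 1. Whether samples of the same number were handled together is not given in the sources used here. With the replicate block 29 and 26 CRKs were higher in pdx3-3 and pdx3-4 and 8 between the alleles, CRK9 passed in pdx3-4 (adjusted p = 0.0278), and CRK31 in pdx3-4 (0.0612) and CRK11 between the alleles (0.0540) did not. Low counts limit CRK8, CRK13, CRK23, CRK31, CRK37, CRK38 and CRK39, with means under 1 CPM in wild type.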

Other observations

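Of the 10 loci that flank the CRK5 to CRK24 array, the 2 with enough counts to be tested were not called in either mutant. Of the 5 loci before it, only GSH1, the first enzyme of glutathione synthesis, passed the filter on low counts, at 229.4 ± 10.9 CPM in wild type (SD, n = 3), 229.1 ± 7.25 in pdx3-3 and 227.4 ± 0.50 in pdx3-4 (log2 −0.057, adjusted p = 0.509, and −0.064, adjusted p = 0.447). Of the 5 loci after it, only AT4G23330 passed, at 9.97 ± 0.78, 10.5 ± 0.26 and 10.9 ± 1.49 CPM (log2 0.021, adjusted p = 0.895, and 0.081, adjusted p = 0.581). Inside the array, the transcribed pseudogene AT4G23215 rose from 0.380 ± 0.153 CPM to 2.14 ± 0.76 in pdx3-3 (log2 2.42, adjusted p = 0.00130) and 1.38 ± 0.53 in pdx3-4 (log2 1.78, adjusted p = 0.00917). AT4G23215 had a wild-type mean under the filter's floor of 0.482 CPM and was tested because of its mutant values. For it a rise was therefore built into being tested. The flanking loci and this pseudogene were looked up after the array's values were seen.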
